A study of Mus musculus with 6 samples.

Results

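The C1q macrophages described here are immune cells of the mouse mammary gland that carried complement C1q transcripts, the receptor for colony-stimulating factor 1 and lysozyme, and few transcripts of dividing cells. They were taken from single-cell RNA sequencing of female C3Tag mice, in which the C3(1) promoter drives the SV40 large T antigen in the FVB/NJ background, so that every animal, at each age, carried the transgene. Whole mammary glands at 5 weeks (Prepuberty), whole mammary glands at 14 weeks (DCIS, ductal carcinoma in situ) and palpable mammary tumours after 18 weeks (Tumor) gave 2 libraries each. A cell was a member if it had at least 200 genes and under 10% mitochondrial UMIs (unique molecular identifiers, each 1 captured transcript), at least 2 of C1qa, C1qb and C1qc, a UMI each of Csf1r and Lyz2, none of Epcam or Cd3e, and no more than 1 of the cell cycle genes Top2a, Mki67, Birc5, Cenpf, Ube2c and Ccnb1. Of 22244 cells kept from 23835 barcodes, 276 were members (1.24%). Prepuberty held 17 of them, DCIS 101 and Tumor 158.

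Tissue macrophages live among epithelium, fat and vessels, where they clear dying cells, take up and recycle iron, and show peptides to T cells on MHC class II molecules. C1q, made largely by macrophages, tags dying cells for removal, and CSF1R signalling keeps most tissue macrophages alive. Resident cells, often marked by the mannose receptor Mrc1, and cells newly made from blood monocytes, which arrive through the chemokine receptor Ccr2, share the same tissue, and inflammatory or interferon signals change what both transcribe.

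Several limits hold for every value. The labels do not say whether the libraries of a state came from different animals, so p-values measure the spread between libraries, which may be technical. The study's methods give a separate tumour dissociation kit for tumours, whereas the labels give 1 overnight collagenase and hyaluronidase digestion for all samples, and the methods, but not the labels, name a later capture kit for Tumor 2. Dissociation and tissue, whole gland or dissected tumour, therefore cannot be told apart from the Tumor state. Values of single libraries are listed below with the 2 Prepuberty libraries first, then those of DCIS and of Tumor, replicate 1 before replicate 2. In that order there were 10, 7, 54, 47, 120 and 38 members with 56272, 46666, 495535, 356235, 799212 and 347491 UMIs. Their median depth was 5554, 6000, 8337, 6909, 6167.5 and 9051.5 UMIs per cell. The 2 Prepuberty libraries were thus by far the thinnest, and Prepuberty 2, with under 10 members, was kept out of the tests unless stated, which left a single Prepuberty library assumed to vary like the others. No member barcode occurred in more than 1 library, while 8 to 35 barcodes of kept cells were shared by each pair of libraries.

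The members carried the transcripts of macrophages beyond those in the rule. Of 20 macrophage identity genes, 19 were detected in each Prepuberty library and all 20 in each DCIS and Tumor library, at a summed level of 13968, 13886, 16550, 19439, 20491 and 18271 CPM (the counts-per-million scale, a gene's UMIs over all member UMIs of the library). Markers of other cells were low but not absent. The T cell genes Cd3d, Cd3g, Trac, Gzmb and Lck, the neutrophil genes Retnlg, Cxcr2 and Ly6g, the dendritic cell genes Xcr1 and Clec9a, the B cell genes Cd79a and Ms4a1, and all mast cell markers were at 0 in members of all 6 libraries. Over their whole lists, however, 11 dendritic cell markers summed to 85.7 to 160 CPM in Prepuberty, 87.0 to 105 CPM in DCIS and 71.9 to 126 CPM in Tumor, and 8 neutrophil markers to 42.9 to 71.1, 56.5 to 70.2 and 37.5 to 40.3 CPM. The 7 B and plasma cell markers summed to 0 and 300 CPM in the 2 Prepuberty libraries, 2.81 to 28.3 CPM in DCIS and 40.3 to 85.1 CPM in Tumor, and 9 T and NK cell markers to no more than 17.3 CPM in any library. Summed fibroblast markers stood at 195 CPM in Prepuberty 1, the highest of the 6 libraries, and 0 in Prepuberty 2, and ran from 33.7 to 182 CPM in DCIS and from 11.5 to 67.6 CPM in Tumor. Endothelial markers were at 42.9 to 53.3, 58.5 to 70.2 and 8.63 to 22.5 CPM in the 3 states, and epithelial markers at 21.4 to 107, 86.8 to 132 and 60.4 to 189 CPM. In all, 78 members had 2 or more markers of 1 other cell type (2, 1, 9, 14, 48 and 4 by library, so most were in Tumor 1). The types counted were T and NK cells, B and plasma cells, neutrophils, endothelial cells, pericytes and smooth muscle, epithelial cells and fibroblasts. Members with a lone marker, or with dendritic cell markers only, were not counted and not removed. Doublet calls numbered 7, and gene calls that ended on removal of either set are named with each gene group.

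Counts at the edges of the rule show which clause cut closest. Among kept or nearly kept cells that missed 1 clause alone, 240 lacked a Csf1r UMI, 115 had fewer than 2 C1q genes, 64 had an Epcam UMI, 61 had 2 or more cycle genes, 7 had too many mitochondrial UMIs and 3 lacked Lyz2. On the inner side, 108 members had exactly 1 Csf1r UMI, 53 had 1 cycle gene, 32 had 2 C1q genes and 4 had 1 Lyz2 UMI. Csf1r was therefore the clause with the most cells just inside and just outside.

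The genes of the rule are given as a description, since they chose the cells. C1qa stood at 1706, 2293, 2414, 2552, 7606 and 4438 CPM in the members, so that both Tumor libraries were above the other 4. Csf1r stood at 213, 300, 208, 230, 379 and 345 CPM, again highest in Tumor. Lyz2, lysozyme of myeloid cells, stood at 1777, 5786, 14800, 15445, 14088 and 26194 CPM and was lowest in both Prepuberty libraries.

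Members made up 0.228% (95% exact binomial interval 0.109 to 0.419), 0.194% (0.0781 to 0.4), 1.70% (1.28 to 2.22), 1.17% (0.864 to 1.56), 2.68% (2.23 to 3.20) and 1.46% (1.03 to 2.00) of the kept cells. These intervals cover counting error only. Both Prepuberty libraries were below all others, while the DCIS and Tumor ranges overlapped. The exact permutation test over the 15 ways to split 6 libraries into 3 pairs gave p = 0.133, where the smallest p it allows is 0.0667. With each cell thinned to 3000 UMIs before the rule was applied, the shares became 0.111, 0.0720, 0.859, 0.666, 2.67 and 1.46%, the DCIS and Tumor ranges no longer overlapped, and the exact p was 0.0667. Thinning thus lowered the Prepuberty and DCIS shares and left the Tumor shares nearly as they were. Without the Csf1r clause, on cells not thinned, the shares were 0.957, 0.694, 4.01, 2.77, 3.73 and 1.69%. The DCIS and Tumor ranges then overlapped, with an exact permutation p of 0.133, so a higher share in Tumor than in DCIS depended on how the cells were chosen.

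**Figure D1:**
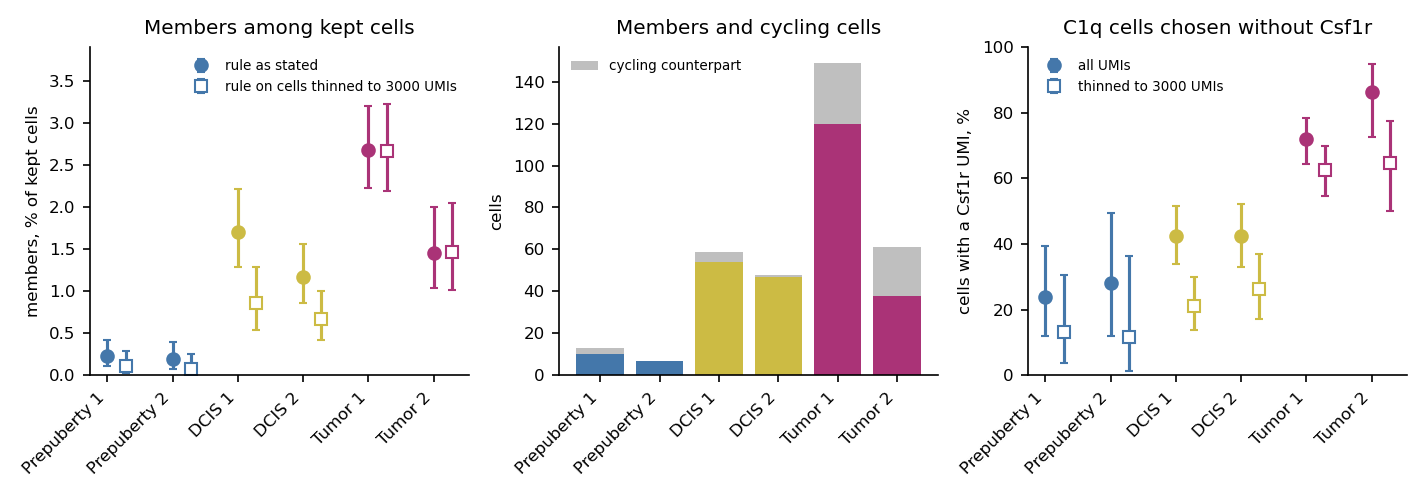
The left panel shows C1q macrophages as a percentage of kept cells in each of the 6 libraries, by the rule as stated and on cells thinned to 3000 UMIs, with 95% exact intervals, the middle panel stacks members and cells that met the rule but carried 2 or more cycle genes, and the right panel shows the percentage of cells chosen without the Csf1r clause that had a Csf1r UMI. Members are fewest in Prepuberty in either count, and the Csf1r share is highest in the 2 Tumor libraries.

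Csf1r could be compared only in cells chosen without it. Dropping that clause gave 42, 25, 127, 111, 167 and 44 cells, in which Csf1r stood at 50.6, 91.9, 115, 121, 318 and 338 CPM. Both Tumor libraries lay above both DCIS libraries, and these above both Prepuberty libraries. The share of these cells with a Csf1r UMI was 23.8, 28, 42.5, 42.3, 71.9 and 86.4%, and 13.3, 11.8, 21.1, 26.2, 62.5 and 64.7% once each cell was thinned to 3000 UMIs. In a fit over all 6 libraries Csf1r was higher in Tumor than in Prepuberty by 2.01 on the log2 scale (SE 0.38, adjusted p = 0.0135), a call lost without Prepuberty 1 (1.68, adjusted p = 0.126). Tumor over DCIS was 1.04 (adjusted p = 0.106), which passed when library totals replaced TMM scaling, and DCIS over Prepuberty was 0.97 (adjusted p = 0.399).

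Between DCIS and Tumor the members differed in more called genes than in the other comparisons, a count that depends on the thin Prepuberty libraries, since with Prepuberty 2 in the fit 113 genes were called here and 117 between Tumor and Prepuberty, and without the Csf1r clause 229 and 346. Members in Tumor had far less of the chemokine Ccl5, of 6 interferon-induced and 8 iron, heme and NRF2 genes and of Ptges and Acod1, and more of the MHC class II genes H2-DMa, H2-DMb1, H2-DMb2 and H2-Eb1, of Mrc1 and of the receptors Ccr2 and Cx3cr1. Of 5302 genes tested, 39 were higher in Tumor (0.736%) and 82 lower (1.55%) at an adjusted p under 0.05, or 2.28% in all. The median log2 difference over all tested genes was 0.13. Scaling by library totals without TMM moved it to 0.52 and the calls to 64 higher and 53 lower. Non-overlapping CPM between the states is a weak criterion here, since 46% of all tested genes were above in both Tumor libraries and 12.6% below.

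Which library was left out decided how many of these 121 genes passed. All kept their direction in every such fit in which they could be tested. The number still called was 120 without Tumor 1, 89 without Prepuberty 1, 45 without DCIS 2, 19 without DCIS 1 and 7 without Tumor 2, each fit with a lone library of a state assumed to vary like the rest. Only 6 genes passed whichever DCIS or Tumor library was omitted. These were Ptges, Slpi, Fabp4, Cxcl13, Gm13822 and Spic, all lower in Tumor. Removing the 78 members with markers of other cell types, or the doublets, left Prepuberty 1 with under 10 members and so out of the fit as well. Of the 89 genes still called without Prepuberty 1 alone, 49 remained when the 78 members were removed (9 higher and 40 lower) and 73 when doublets were (21 and 52).

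**Figure D2:**
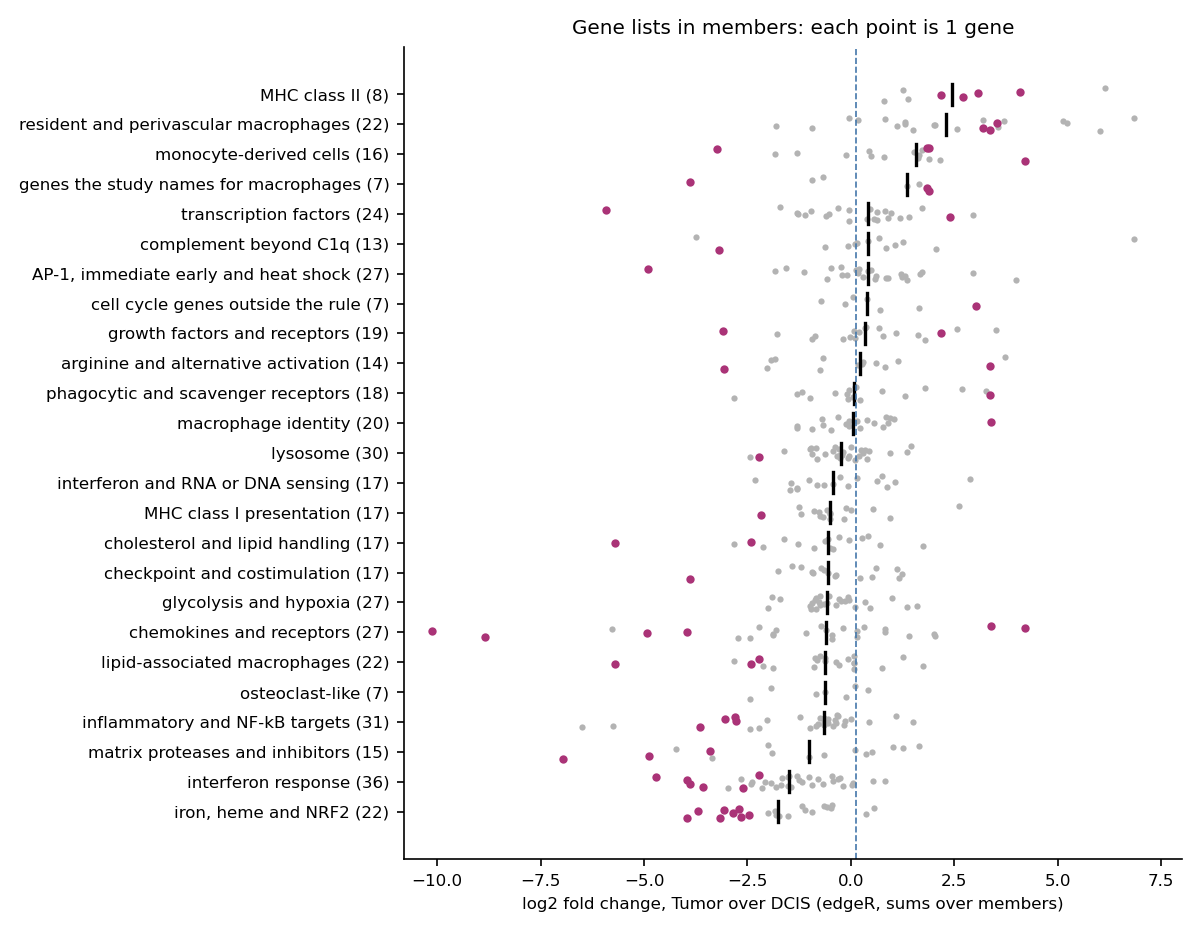
Each point is the log2 difference of 1 gene, Tumor over DCIS, in C1q macrophages, ordered by gene list, with called genes in purple, a black bar at each list's median and a dashed line at the median of all tested genes (0.13). Called genes of the interferon list and of the iron, heme and NRF2 list all lie below the line and those of MHC class II all above it, while the fitted values of genes at 0 in a state depend on the prior count.

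Among chemokines and their receptors, which direct leukocytes through tissue, 4 of 27 tested genes fell in Tumor (Ccl5, Cxcl3, Cxcl10, Cxcl13) and 2 rose (Ccr2, Cx3cr1), with a list median of -0.61. Ccl5 (ENSMUSG00000035042; GRCm38 chromosome 11, 83525778 to 83530518, minus strand), which attracts T cells and monocytes, stood at 25803, 15707, 17789, 21806, 93.8 and 0 CPM. Every Prepuberty and DCIS library was thus far above both Tumor libraries, and Ccl5 fell by 8.84 on the log2 scale from DCIS to Tumor (SE 1.33, adjusted p = 0.0128). The call was lost without DCIS 1 (adjusted p = 0.0971). Ccl5 UMIs were in 10 of 10, 7 of 7, 44 of 54, 38 of 47, 27 of 120 and 0 of 38 members, and a count of 0 in 38 allows a share of up to 7.89%. In epithelial cells of the same libraries, which held Epcam and neither Ptprc nor C1q UMIs, 30.2, 15.6, 36.1, 28.8, 20 and 1.95% had a Ccl5 UMI at median depths of 11307, 7099.5, 8408, 8321, 11692 and 16249 UMIs. The 22.5% of members with Ccl5 in Tumor 1 is close to that background and is read as such.

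Cxcl13, a B cell attractant (chromosome 5, 95956951 to 95961068, plus strand), had 0, 0, 611, 307, 1 and 0 UMIs in members, a ratio of DCIS to Tumor of 1236 (95% counting interval 221 to 48867). Its UMIs came from 7 and 5 DCIS members, the highest of which held 46.6 and 70.7% of them. All of these cells also had Ccl5. The level of Cxcl13 in DCIS therefore rests on few cells, unlike that of Ccl5. Of the 82 genes lower in Tumor, 9 had over 50% of their UMIs in a single cell of a DCIS library (Ccl11, Cxcl13, Cxcl3, Dcn, Gm15056, Hspb1, Mmp13, Rarres2 and Saa3), against 0 of the 39 higher genes in a Tumor library. Dcn is a defining fibroblast gene, with 60 UMIs in DCIS members and 3 in Tumor members, a ratio of 26.9 (8.78 to 134), and the part of fibroblast RNA in other results was not tested.

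**Figure D3:**
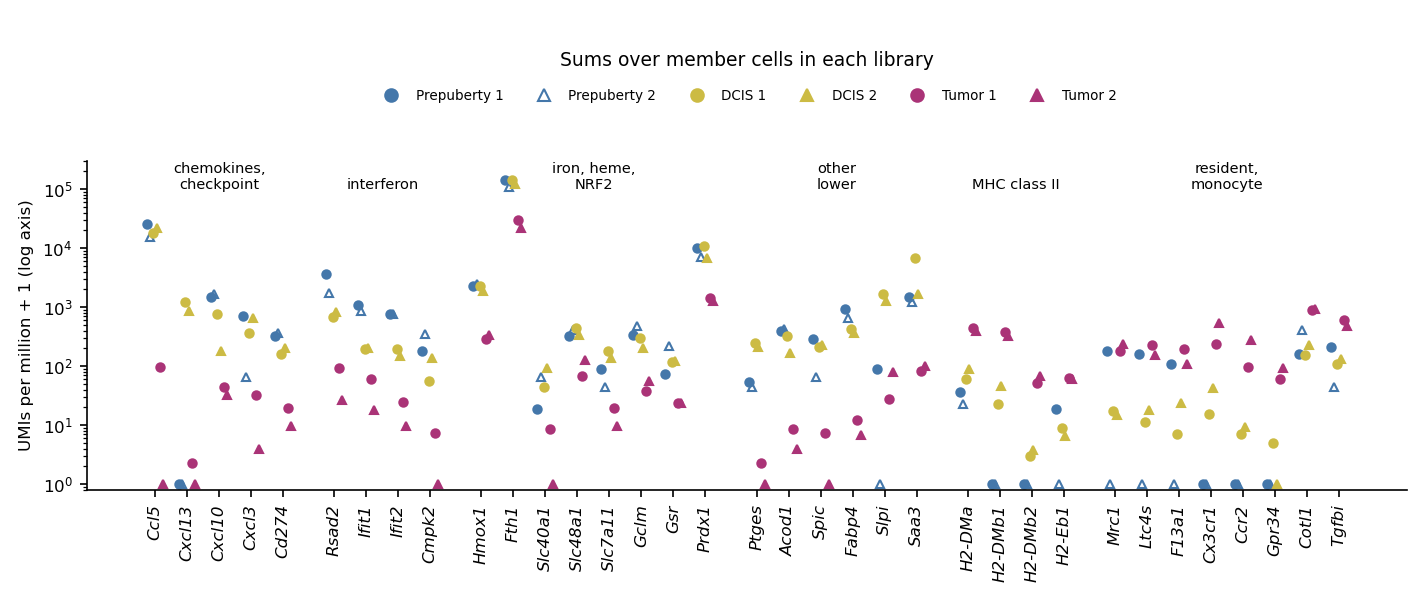
Levels of named genes in C1q macrophages, grouped by role, as CPM plus 1 on a log axis, with 1 symbol for each of the 6 libraries. Ccl5 lies at 15707 CPM or more in the 4 Prepuberty and DCIS libraries and at 93.8 and 0 CPM in Tumor, while Ccr2 and Cx3cr1 lie at 0 in both Prepuberty libraries and are highest in Tumor.

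Of the genes called lower in Tumor, Ptges (chromosome 2, 30889471 to 30929863, minus strand), which makes prostaglandin E2, had 3, 2, 124, 75, 1 and 0 UMIs, a DCIS to Tumor ratio of 268 (95% counting interval 47.5 to 10634). At 53.3 and 42.9 CPM, Prepuberty lay between DCIS, at 250 and 211 CPM, and Tumor. Acod1, which makes itaconate in activated macrophages, stood at 391, 429, 321, 166, 7.51 and 2.88 CPM and fell by 5.63 (SE 0.60, adjusted p = 0.00396). Both Tumor libraries lay far below the 4 gland libraries, and the call was lost only without Tumor 2 (adjusted p = 0.0651). Slpi, a protease inhibitor chosen for mention after its values were seen, stood at 88.9, 0, 1645, 1283, 26.3 and 77.7 CPM and fell by 5.30 (SE 0.54, adjusted p = 0.00379), so that DCIS was above both other states.

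Of 31 inflammatory and NF-kB target genes, 4 fell and none rose, with a list median of -0.65. They were the mitochondrial superoxide dismutase Sod2 (log2 difference -3.05, adjusted p = 0.0119), the cytokine Il18 (-3.64, 0.0135), the signalling adaptor Traf1 (-2.81, 0.0217) and the prostaglandin synthase Ptgs2 (-2.78, 0.0335). None of the 4 passed without DCIS 1 or without Tumor 2. Traf1 and Ptgs2 were also lost without DCIS 2, and Ptgs2 without Prepuberty 1 (adjusted p = 0.053). Il1b, chosen for mention after its values were seen, did not follow them, at 2328, 150, 1415, 1353, 1578 and 57.6 CPM (-0.99, adjusted p = 0.641), with the 2 Tumor libraries far apart and the states overlapping. Of 17 checkpoint and costimulation genes only Cd274, which encodes the T cell inhibitor PD-L1 (chromosome 19, 29367455 to 29388095, plus strand), passed. It stood at 320, 364, 161, 199, 18.8 and 8.63 CPM and fell by 3.89 (SE 0.47, adjusted p = 0.00679), a call lost only without Tumor 2 (adjusted p = 0.0647). Cd274 UMIs were in 90, 57.1, 59.3, 68.1, 10.0 and 7.89% of members, against 0.472 to 6.45% of epithelial cells.

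Interferons switch on a shared set of antiviral genes. Of 36 such genes tested in members, 6 fell from DCIS to Tumor and none rose (Ifit1, Ifit2, Rsad2, Cxcl10, Cmpk2, Herc6), with a list median of -1.51, and 24 of the 36 lay below DCIS in both Tumor libraries, where 12.6% of all tested genes did. Summed over the list, members held 18819, 19029, 6908, 8096, 3580 and 1966 CPM, so that the states were ordered Prepuberty, DCIS, Tumor without overlap. Rsad2, which blocks viral replication (chromosome 12, 26442746 to 26456452, minus strand), stood at 3572, 1714, 686, 817, 92.6 and 25.9 CPM and fell by 3.89 (SE 0.62, adjusted p = 0.0169). Ifit2, which binds viral RNA, stood at 764, 750, 196, 149, 23.8 and 8.63 CPM and fell by 3.58 (SE 0.51, adjusted p = 0.0119). The order of the states was the same in both genes. Cxcl10 (chromosome 5, 92346638 to 92348889, minus strand), a T cell attractant, stood at 1511, 1671, 759, 182, 43.8 and 31.7 CPM and fell by 3.97 (adjusted p = 0.0248). Isg15, chosen after its values were seen, did not pass (-2.15, adjusted p = 0.21).

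The interferon calls depended on single libraries. Of the 6 genes, 3 passed without DCIS 2, 1 without DCIS 1 and none without Tumor 2 (adjusted p 0.0647 to 0.161), while without Tumor 1, when 5.90% of all tested genes were lower, 20 of the list were. Without Prepuberty 1 Ifit1 was lost (0.0559). When members carrying other cells' markers were removed in that same fit, Rsad2 (0.0713), Cmpk2 (0.0713), Cxcl10 (0.119) and Herc6 (0.117) were lost too, and removal of doublets ended the call of Herc6 (0.054). In the wider set of cells chosen without the Csf1r clause, which contains the members, 10 of 36 were lower in Tumor than in DCIS with a median of -1.57, where 2.86% of 5278 genes were lower and 1.48% higher.

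The promoters of these genes are shown because the listed genes lay lower together. In RefSeq (GRCm38.p6), windows of 250 bases before to 50 after the start were searched on both strands for the core of the interferon-stimulated response element, which is GAAA, any 2 bases and GAAA, or TTTC, any 2 bases and TTTC on the other strand. The motif was chosen after the values were seen. It was in 3 of the 6 genes called lower, in 16 of the 29 listed genes that had a window (55.2%), in 4.79% of the 4199 tested genes with a window and in 3.99% of all 27025 genes. The matches are given in capitals, with each stretch 5′ to 3′ on the strand of its gene, for Ifit1 (chr19:34640760-34640838, plus strand), Rsad2 (chr12:26456538-26456597, minus strand) and Cxcl10 (chr5:92349068-92349127, minus strand).
Ifit1: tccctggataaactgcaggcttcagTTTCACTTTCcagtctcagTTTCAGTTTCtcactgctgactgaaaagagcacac
Rsad2: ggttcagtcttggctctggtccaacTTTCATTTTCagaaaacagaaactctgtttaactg
Cxcl10: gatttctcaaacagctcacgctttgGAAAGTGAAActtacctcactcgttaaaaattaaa
The matches begin 104 and 85 bases before the start of Ifit1, 120 bases before that of Rsad2 and 213 bases before that of Cxcl10. A match is a description of these letters and neither a binding site nor a cause of the levels above.

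Iron and heme genes, with the antioxidant genes that the factor NRF2 controls, formed the list with the most calls. Of 22 tested genes, 8 fell from DCIS to Tumor and none rose, with a median of -1.77 against 0.13 for all genes. Their summed level was 232869, 186431, 221373, 192042, 61103 and 48240 CPM, with both Tumor libraries well below the 4 gland libraries. In the 4 gland libraries, but not in Tumor, most of it was the ferritin heavy chain Fth1, which stores iron. Fth1 stood at 143606, 108237, 140458, 119997, 30457 and 22107 CPM. Fth1 fell by 2.66 (SE 0.56, adjusted p = 0.0454), a call lost without any of the 5 libraries but Tumor 1 (adjusted p 0.0711 to 0.507). Fth1 was the closest of the 8 to the threshold.

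The heme-degrading enzyme Hmox1 (chromosome 8, 75093621 to 75100589, plus strand) stood at 2239, 2464, 2321, 1903, 288 and 331 CPM and fell by 3.15 (SE 0.40, adjusted p = 0.00773), losing its call without DCIS 1 (0.102) or Tumor 2 (0.0647). All 4 gland libraries lay within a narrow range and both Tumor libraries far below it. Hmox1 UMIs were in 70.0, 100, 94.4, 89.4, 50.8 and 57.9% of members, against 53.9, 47.7, 41.6, 60.3, 32.7 and 30.9% of epithelial cells. Slc7a11, the cystine importer, stood at 88.9, 42.9, 178, 135, 18.8 and 8.63 CPM and fell by 3.69 (SE 0.47, adjusted p = 0.00796). The iron exporter Slc40a1, at 17.8, 64.3, 42.4, 92.6, 7.51 and 0 CPM, fell by 3.96 (adjusted p = 0.0335). The others were the peroxiredoxin Prdx1 (-3.06), the heme transporter Slc48a1 (-2.45), the glutathione reductase Gsr (-2.70) and the glutathione synthesis subunit Gclm (-2.84). Without DCIS 1 or without Tumor 2 none of the 8 passed, and Fth1, Slc40a1 and Prdx1 were also lost without DCIS 2. Without Prepuberty 1 Fth1 and Slc40a1 (0.0559) were lost, and of the 6 others none lost its call in that fit when members with other cells' markers or doublets were removed.

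Spic, a transcription factor of iron-recycling macrophages (chromosome 10, 88674772 to 88685015, minus strand), stood at 284, 64.3, 214, 225, 6.26 and 0 CPM and fell by 5.93 (SE 0.63, adjusted p = 0.00396), passing whichever DCIS or Tumor library was left out. Of 24 transcription factors tested, Spic was the single one that fell, and the single one that rose was Mef2c (2.40, adjusted p = 0.03), a call lost without any single library but Tumor 1 (0.0527 to 0.305). Fabp4, a fatty acid carrier (chromosome 3, 10204088 to 10208576, minus strand), stood at 942, 664, 430, 357, 11.3 and 5.76 CPM and fell by 5.69 (SE 0.50, adjusted p = 0.00147). Both Tumor libraries lay below the other 4, while the order of Prepuberty and DCIS is uncertain, since 1 cell held 86.8 and 83.9% of the Fabp4 UMIs of the 2 Prepuberty libraries. In DCIS, Fabp4 UMIs were in 23 of 54 and 23 of 47 members, with 26.3 and 43.3% of them in 1 cell. Endothelial markers in members stood at 58.5 to 70.2 CPM in DCIS and 8.63 to 22.5 CPM in Tumor, and adipocyte markers at no more than 2.81 CPM. The part of other cells' RNA in the Fabp4 values was not tested. Fabp4 belongs to the lipid-associated list, of whose 22 genes 3 fell (Fabp4, Fabp5 and the protease Ctsl) and none rose, with a median of -0.63. Fabp5 and Ctsl lost their calls without either DCIS library or without Tumor 2. Trem2, the lipid receptor that defines such cells, stood at 71.1, 42.9, 321, 340, 636 and 812 CPM (Tumor over DCIS 0.74, adjusted p = 0.27). Both Tumor libraries thus held the highest Trem2 and the lowest Fabp4 values, though the Trem2 difference was not called.

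MHC class II genes, which load and show peptides to helper T cells, stood higher in Tumor members. Of 8 tested genes, 4 rose and none fell, the median was 2.45, and all 8 lay above DCIS in both Tumor libraries, where 46% of all genes did. The summed level of the list was 2808, 4972, 4236, 6844, 21290 and 10774 CPM. H2-DMb1, a chain of the peptide exchange factor (chromosome 17, 34153072 to 34160230, plus strand), stood at 0, 0, 22.2, 44.9, 382 and 319 CPM and rose by 3.06 (SE 0.44, adjusted p = 0.0119). Its partner H2-DMa stood at 35.5, 21.4, 58.5, 87.0, 449 and 388 CPM and rose by 2.18 (SE 0.38, adjusted p = 0.025). Both were well above their DCIS levels in each Tumor library. H2-DMb2 had 0, 0, 1, 1, 40 and 23 UMIs, a Tumor to DCIS ratio of 23.4 (95% counting interval 6.21 to 197), and shares sequence with H2-DMb1, so that reads could be split between them.

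The classical class II genes were far more abundant and did not all pass. H2-Eb1 rose by 2.71 (SE 0.55, adjusted p = 0.0382) from few UMIs, 4 and 2 in DCIS and 49 and 21 in Tumor. H2-Ab1 stood at 409, 1372, 1191, 1507, 6035 and 2576 CPM (1.37, adjusted p = 0.203). H2-Aa (835, 1179, 1211, 1732, 4275 and 2095 CPM) and the invariant chain Cd74 (1493, 2336, 1729, 3442, 10017 and 5235 CPM), both named after their values were seen, had the same order of states without passing (adjusted p = 0.401 and 0.242). None of the 4 class II calls held without DCIS 1 (adjusted p 0.197 to 0.339) or without Tumor 2 (0.0647 to 0.0861), and 1 held without DCIS 2. In the fit without Prepuberty 1, H2-Eb1 (0.0496) lost its call on removal of members with other cells' markers (0.0713) or of doublets (0.054), and the other 3 kept theirs. H2-DMb1 UMIs were in 0, 0, 14.8, 25.5, 55.0 and 44.7% of members, where 0 of 10 and 0 of 7 cells allow shares of up to 30% and 42.9%, against 9.20, 9.54, 5.78, 9.62, 3.15 and 30.6% of epithelial cells. Of 17 genes of class I presentation, 1 fell, H2-T22 (-2.17, adjusted p = 0.0192), a member of a family of near-identical copies whose count is uncertain. The H2-T22 call was lost without either DCIS library or without Tumor 2.

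Among 22 genes of resident and perivascular macrophages, 3 rose from DCIS to Tumor and none fell, with a median of 2.29. The mannose receptor Mrc1 (chromosome 2, 14229392 to 14332057, plus strand) stood at 178, 0, 16.1, 14.0, 178 and 239 CPM and rose by 3.36 (SE 0.40, adjusted p = 0.00679). The Prepuberty 1 value rests on 10 UMIs in 4 cells, 70% of them in 1 cell, and Prepuberty 2 had no UMI in 7 cells. The leukotriene synthase Ltc4s (160, 0, 10.1, 16.8, 229 and 155 CPM) rose by 3.52 (SE 0.49, adjusted p = 0.0117), and the transglutaminase F13a1 (107, 0, 6.05, 22.5, 195 and 109 CPM) by 3.19 (SE 0.61, adjusted p = 0.0335). In Prepuberty 1 the other two had 9 and 6 UMIs, 55.6 and 66.7% of them in 1 cell, so the place of Prepuberty among the states is uncertain for all 3 genes. None held without DCIS 1 (adjusted p 0.0971 to 0.32) or Tumor 2 (0.0639 to 0.0667), and F13a1 was also lost without Prepuberty 1 (0.055), while Mrc1 and Ltc4s kept their calls there when members with other cells' markers or doublets were removed. The list median fell to 0.55 without Tumor 1. Folr2, chosen after its values were seen, stood at 196, 236, 34.3, 70.2, 267 and 77.7 CPM (1.49, adjusted p = 0.245), with Tumor 2 close to DCIS, and Lyve1 had 3, 0, 0, 0, 29 and 0 UMIs, all its Tumor UMIs in Tumor 1.

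Of 16 genes of monocyte-derived cells, 3 rose (Ccr2, Tgfbi, Cotl1), 1 fell (Thbs1), and the median was 1.58, or 0.47 without Tumor 2. Ccr2 (chromosome 9, 124101950 to 124113557, plus strand), the receptor through which monocytes leave the bone marrow, stood at 0, 0, 6.05, 8.42, 95.1 and 279 CPM and rose by 4.20 (SE 0.61, adjusted p = 0.0123). Its call was lost without DCIS 1 (0.165) or Tumor 2 (0.0651). Ccr2 UMIs were in 0, 0, 5.56, 2.13, 33.3 and 34.2% of members and in at most 0.460% of epithelial cells, so its Tumor shares stood above background. The actin-binding protein Cotl1 (160, 407, 155, 227, 896 and 938 CPM) rose by 1.90 (SE 0.37, adjusted p = 0.0335) and the matrix protein Tgfbi (213, 42.9, 107, 132, 607 and 475 CPM) by 1.84 (SE 0.38, adjusted p = 0.0441). Both lost their calls without either DCIS library or without Tumor 2. In the fit without Prepuberty 1, removal of members with other cells' markers ended the calls of Ccr2 (0.0524) and Tgfbi (0.0524) and removal of doublets that of Tgfbi (0.054).

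Cx3cr1 (chromosome 9, 119901616 to 120069879, minus strand), the fractalkine receptor of monocytes and many tissue macrophages, had 0 UMIs in Prepuberty members and stood at 14.1, 42.1, 235 and 530 CPM in the DCIS and Tumor libraries. It rose by 3.38 (SE 0.54, adjusted p = 0.0169), a call lost without DCIS 1 (0.226) or Tumor 2 (0.0803). Cx3cr1 UMIs were in 7.41 and 8.51% of DCIS members, near the 5.23 and 7.02% of epithelial cells there and read as background, and in 52.5 and 68.4% of Tumor members, where epithelial cells had 1.03 and 0.826%. Gpr34, a lysophospholipid receptor, had 0, 0, 2, 0, 47 and 32 UMIs, a Tumor to DCIS ratio of 29.3 (95% counting interval 7.86 to 246). Gpr183, an oxysterol receptor, had 0, 0, 3, 2, 90 and 26 UMIs and rose by 3.62 (SE 0.58, adjusted p = 0.0169). Each of these receptors was higher in both Tumor than in both DCIS libraries. Gpr34 and Gpr183 lost their calls without either DCIS library or without Tumor 2, and removal of members with other cells' markers in the fit without Prepuberty 1 ended those of Cx3cr1 (0.0531), Gpr34 (0.0527) and Gpr183 (0.0531).

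Matrix proteases and their inhibitors gave 3 calls among 15 genes, all lower in Tumor (Mmp3, Mmp13, Timp1), with a median of -1.02. Mmp3 had 17 and 11 UMIs in DCIS and 0 in both Tumor libraries, at least 12.6-fold lower with 3 counts as the floor over the group, and Mmp13 had up to 64.6% of its UMIs in 1 cell. Without Prepuberty 1 Mmp13 (adjusted p = 0.053) and Timp1 (0.0772) were lost, and without Tumor 2 none of the 3 held. Mmp3 and Mmp13 were also lost without DCIS 2 and Timp1 without DCIS 1, where Mmp3 could not be tested. Of 7 macrophage genes that the study names and that are not in the rule, Cotl1 and Tgfbi rose and Cd274 fell, while Fos (1.36, adjusted p = 0.155), Fn1 (1.64, 0.224), Cd68 (-0.94, 0.236) and Fcer1g (-0.67, 0.408) did not pass. The study also names C1qa, C1qb and C1qc for Tumor macrophages, but these chose the cells here and were not tested. The study's genes were chosen on these samples and are no independent evidence of direction. The growth factor list of 19 genes had 1 rise, the TGF-beta receptor Tgfbr1 (2.18, adjusted p = 0.0265), and 1 fall, the activin subunit Inhba (-3.08, 0.0471). Both were lost without either DCIS library or without Tumor 2, Inhba also without Prepuberty 1 (0.0559), and Tgfbr1 on removal of members with other cells' markers in that fit (0.0713). Complement beyond C1q gave 1 call among 13 genes, a fall of C3 (-3.18, adjusted p = 0.0127), lost without DCIS 2 (0.0581) or Tumor 2 (0.0925).

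The remaining lists gave few calls. Neither edgeR nor DESeq2 called any of 27 genes of glycolysis and hypoxia (median -0.59, 1 higher and 5 lower at an unadjusted p under 0.05), 17 of interferon and nucleic acid sensing (-0.44, 2 and 4) or 7 of osteoclast-like cells (-0.64, 0 and 2). Over all 5302 tested genes, 1016 had an unadjusted edgeR p under 0.05, so the unadjusted counts here are read as no result about a list. Lysosomal genes had 1 call among 30, Ctsl, with a median of -0.23. The 27 AP-1, immediate early and heat shock genes, which cells switch on under stress, had 1, a fall of Hspb1 whose UMIs were mostly in 1 cell of each DCIS library (51.5 and 86.2%), a median of 0.41, and 7 higher and 3 lower at an unadjusted p under 0.05. Among the 7 was Fosb, with 7 and 1 UMIs in DCIS and 230 and 25 in Tumor members (adjusted p = 0.0506), which was called higher in the wider cells without the Csf1r clause, as was Klf4. Fosb UMIs were in 7.41, 2.13, 64.2 and 44.7% of DCIS and Tumor members and in 5.72, 8.29, 57.8 and 29.2% of epithelial cells there, so both cell classes were high in Tumor, and the part of this in other results was not tested. Phagocytic receptors had Mrc1 alone among 18. Of 17 genes of cholesterol and lipid handling Fabp4 and Fabp5 fell, and of 7 cell cycle genes outside the rule the microtubule regulator Stmn1 rose (3.02, adjusted p = 0.0391), a call lost without either DCIS library, without Tumor 2 and, in the fit without Prepuberty 1, without members holding other cells' markers (0.067).

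How many cells carried a transcript was compared at 3000 UMIs per cell, which left out 16 members (1, 1, 2, 3, 8 and 1 by library). Trem2 was then in 11.1, 0, 44.2, 47.7, 71.4 and 75.7% of members and in at most 0.3% of epithelial cells, Prepuberty lowest and Tumor highest. Cd274 ran the other way, at 77.8, 50.0, 30.8, 45.5, 3.6 and 2.7% of members. Mrc1 was in 33.3, 0, 5.8, 4.5, 25 and 32.4%, and the low DCIS shares matched its CPM. H2-Aa was in 66.7, 16.7, 36.5, 50.0, 64.3 and 43.2%, and Il1b in 44.4, 16.7, 59.6, 52.3, 58.9 and 13.5%, with overlapping states in both. For Spp1 the epithelial share was 96.6% in Tumor 1 and 63.0% in Tumor 2, where members had 78.6 and 75.7%, and for Isg15 the epithelial share in Tumor (54.1 and 26.1%) exceeded that of members (49.1 and 10.8%), so these Tumor shares are not read as expression by members.

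**Figure D4:**
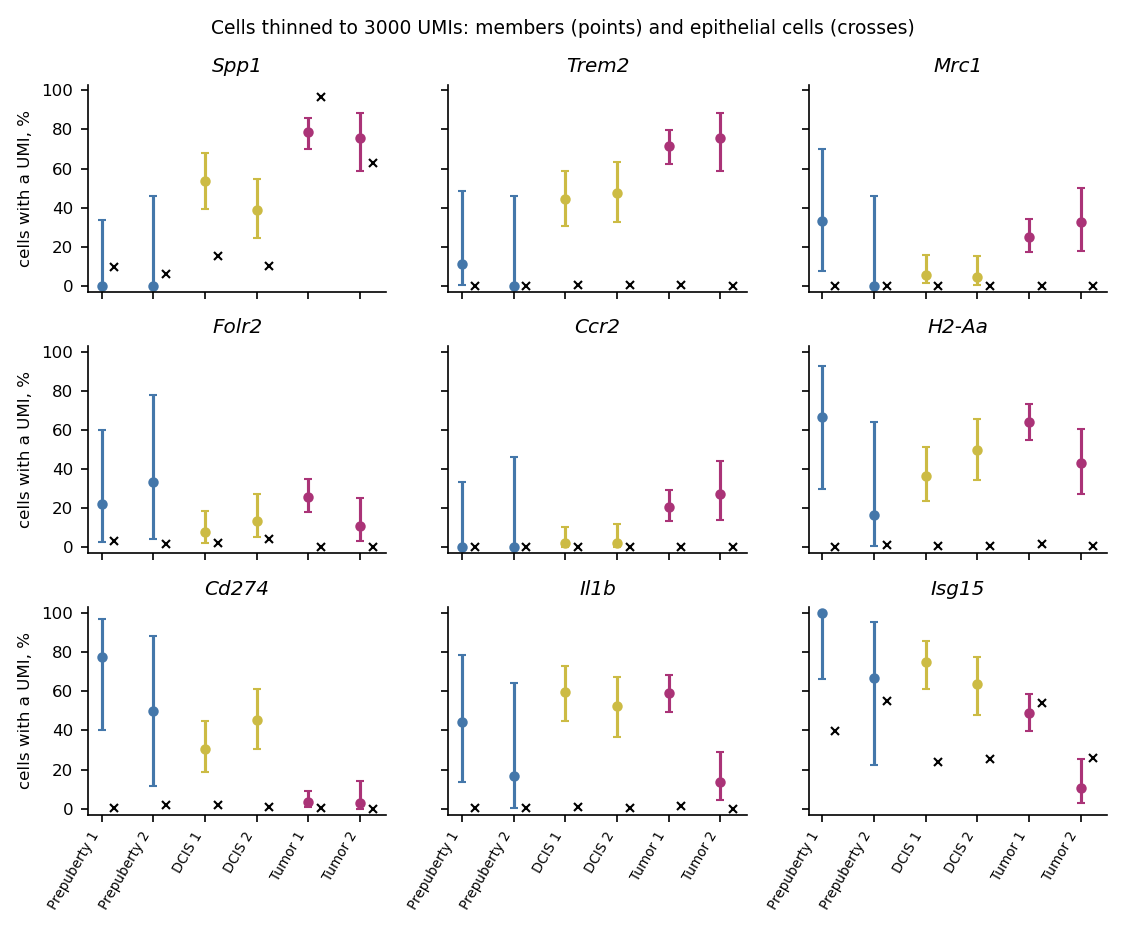
Percentage of C1q macrophages with a UMI of each of 9 genes at 3000 UMIs per cell, as points with 95% exact intervals for each of the 6 libraries, and the same percentage in epithelial cells as crosses. Cd274 lies at 3.6 and 2.7% of Tumor members against 30.8 and 45.5% of DCIS members, whereas the Isg15 crosses lie above the points in both Tumor libraries and the Spp1 cross in Tumor 1.

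Members of Tumor were not uniform. Mrc1 and Folr2 were found together in 26 of the 36 Mrc1 and 36 Folr2 cells of Tumor 1 and in 12 of the 22 and 16 of Tumor 2. All 11 Lyve1 cells of Tumor 1 also had Mrc1. Ccr2 and Cx3cr1 were together in 17 of 40 and 63 cells in Tumor 1 and in 6 of 13 and 26 in Tumor 2, and Mrc1 and Cx3cr1 in 14 and 13 cells. In the gland libraries most members carried Ccl5 and Hmox1 at once, 7 of 10 and 7 of 7 members in Prepuberty, 42 of 54 in DCIS 1 and 34 of 47 in DCIS 2. Each of these 2 genes alone was in most DCIS members, Ccl5 in 44 and 38 and Hmox1 in 51 and 42, and Ccl5 was in every Prepuberty member. No joint count was set against the count expected from the 2 single shares, so none is read as genes going together or apart. These joint counts are descriptions of cells that share libraries and depth.

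DCIS and Prepuberty members differed in 1 called gene, a count that ran from 0 to 79 over the alternatives. Ifnb1 (chromosome 4, 88522025 to 88522774, minus strand), the type I interferon made on sensing nucleic acids, was lower in DCIS (0.0189% of genes were called lower and 0% higher, adjusted p = 0.0448). Over both libraries of each state it had 34 UMIs in Prepuberty and 2 in DCIS, a ratio of 141 (95% counting interval 36.1 to 1209). Those UMIs lay in 3 of 10 members of Prepuberty 1, 1 of 7 of Prepuberty 2, 0 of 54 of DCIS 1 and 1 of 47 of DCIS 2, where 0 of 54 allows up to 5.56%, so the value rests on 4 Prepuberty cells. The call was lost without DCIS 1 or Tumor 2, with RLE or no TMM scaling, at the 5% mitochondrial limit, without the Csf1r clause and with Prepuberty 2 in the fit, and the stricter filter on low counts left the gene untested. At an unadjusted p under 0.05 there were 351 genes, and DESeq2 called 6 higher and 3 lower. A fit of the DCIS and Prepuberty libraries alone called 37 higher and 42 lower, no filter on low counts gave 20 and 22, leaving out Tumor 1 gave 12 and 20, and thinned library sums gave 5 and 8.

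With 1 Prepuberty library of 10 cells in the fit, the values of groups are given as description. The interferon list was lower in DCIS in 23 of 36 genes without overlap, where 19.1% of all genes were, and its median was -0.74 against 0.38 for all genes, with none called by edgeR (8 lower at an unadjusted p under 0.05). Resident genes had a median of -1.14 and 8 of 22 lower without overlap. Monocyte-derived genes had a median of 2.67 and 9 of 16 higher without overlap, where 23.1% of all genes were, but their summed level was 6309 and 7714 CPM in Prepuberty and 6807 and 6852 CPM in DCIS. In the wider cells without the Csf1r clause, over all 6 libraries, their median was 0.49, with 5 genes higher and 5 lower without overlap. Spp1, osteopontin, had 4, 0, 2035 and 614 UMIs in the Prepuberty and DCIS members, and Trem2 was higher in both DCIS libraries (2.45, adjusted p = 0.53). In the wider cells chosen without the Csf1r clause, fitted over all 6 libraries, Spp1, Trem2 and Vegfa were called higher and Marco lower in DCIS (0.0758% and 0.0189% of 5278 genes).

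Tumor and Prepuberty members, a comparison that shares its Tumor libraries with the one above, differed in 27 genes, 2 higher (0.0377%) and 25 lower (0.472%). The 2 that rose were Spp1 (chromosome 5, 104435118 to 104441050, plus strand; 71.1, 0, 4107, 1724, 3503 and 4599 CPM in the 6 libraries) by 5.68 (SE 0.90, adjusted p = 0.0377) and the glutathione peroxidase Gpx1 (124, 471, 482, 601, 1345 and 1891 CPM) by 3.54 (SE 0.59, adjusted p = 0.0414). The DCIS levels of Spp1 overlapped those of Tumor, whereas Gpx1 was highest in Tumor. Epithelial cells of Tumor also carried Spp1, in 97.5 and 82.8% of cells unthinned, and the part of their RNA was not tested. Neither call held without DCIS 1 (0.0892 and 0.205) or Tumor 2 (0.184 and 0.151).

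Among the genes lower in Tumor than in Prepuberty were the chemokines Ccl5 (-8.99, adjusted p = 0.0319) and Ccl4 (20099, 2014, 2008, 952, 524 and 138 CPM; -5.96, 0.0272), Cxcl3 and Cxcl10. Ccl4 was far higher in Prepuberty 1 than in Prepuberty 2, which stood at the level of DCIS 1. Of the interferon list 5 of 36 were lower (Ifit1, Ifit2, Rsad2, Cxcl10 and Herc6), with a median of -2.16 against 0.48 for all genes, and 30 of 36 lay below without overlap, where 13.5% of all genes did. With Prepuberty 2 in the fit, when 1.84% of 4245 genes were lower, 12 of the list were, and in the wider cells without the Csf1r clause 23 of 36, where 4.15% of 5278 genes were lower and 2.41% higher. Of iron, heme and NRF2 genes, Hmox1 (-2.99, adjusted p = 0.0275) and Gclm passed, with a list median of -1.73. Fabp4 (-6.71, adjusted p = 0.00171), Spic, Acod1 (-6.06), Cd274 (-4.48) and Sod2 (-2.98) were lower too. Of the 27 calls 12 remained without DCIS 1, 22 without DCIS 2, 27 without Tumor 1 and 4 without Tumor 2, the 4 being Ccl5, Fabp4, Gm13822 and Rsad2. MHC class II (median 3.38) and monocyte-derived genes (3.88) gave no call by edgeR in this comparison, though 6 of each were higher at an unadjusted p under 0.05 and DESeq2 called 1 and 2 higher. Both medians rest on the 10 cells of Prepuberty 1, and in the wider cells over all 6 libraries they were 1.48 and 1.53. The summed level of the monocyte-derived list was 7770 and 8820 CPM in Tumor, against 6309 and 7714 CPM in Prepuberty. Over all genes 721 had an unadjusted p under 0.05.

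Whether the members moved with the rest of the tissue was tested as a difference of differences, members against all other kept cells of the same libraries, Tumor against DCIS. It passed for 76 of 5302 genes (1.43%), 50 more positive in members (0.943%) and 26 more negative (0.49%), and 18 of the 76 were among the 121 genes above. Ccl5 fell more in members than in the rest (difference -5.98, SE 0.64, adjusted p = 0.00447), the rest holding 1220, 961, 226 and 27.1 CPM in DCIS and Tumor. Inhba went the other way in the rest, from 67.2 and 32.2 to 270 and 180 CPM, while it stood at 32.3, 64.6, 8.76 and 2.88 CPM in members (-5.30, SE 0.73, adjusted p = 0.0141). Cx3cr1 rose in members but stood at 15.2, 39.8, 7.11 and 10.4 CPM in the rest (5.19, SE 0.41, adjusted p = 0.000808). For Hmox1 (2.11, adjusted p = 0.0824), Mrc1 (0.96, 0.419) and Cd274 (-0.04, 0.993) no difference between members and the rest was called. None of the 76 passed without DCIS 1. The makeup of the other cells also differed between states, and its part was not tested.

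**Figure D5:**
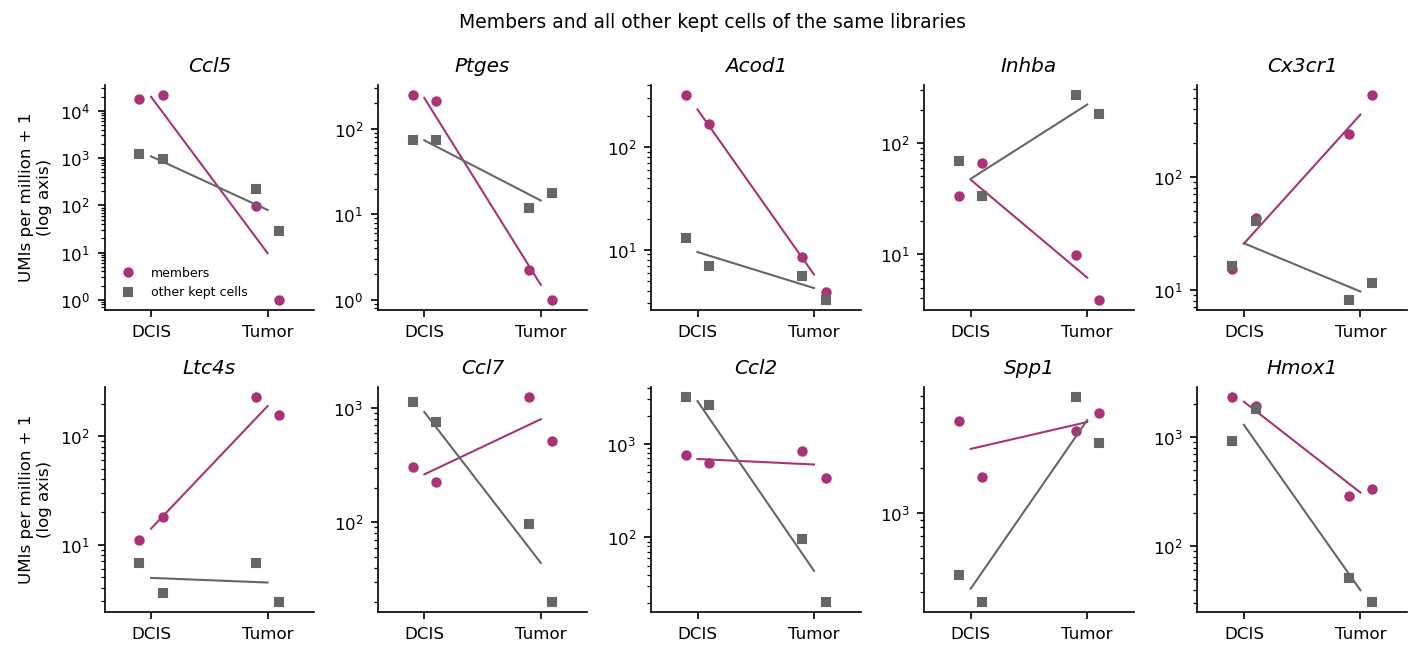
CPM plus 1, on a log axis, of 10 genes in C1q macrophages and in all other kept cells of the 2 DCIS and 2 Tumor libraries, with lines joining the geometric means of each state. Ccl5 and Ptges fall further in members, Cx3cr1 climbs in members (14.1 and 42.1 to 235 and 530 CPM) and stays under 40 CPM in the other cells, and Inhba and Spp1 climb in the other cells.

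Cells that met every clause but carried 2 or more of the cycle genes numbered 3, 0, 5, 1, 29 and 23, so they could be set beside the members only in Tumor, as a description. In Tumor 1 and Tumor 2 these cycling cells held Cx3cr1 at 382 and 743 CPM (members 235 and 530), Ccr2 at 66.4 and 226 CPM (members 95.1 and 279), Mrc1 at 119 and 62.4 CPM (members 178 and 239) and H2-DMb1 at 236 and 80.2 CPM (members 382 and 319). Ccl5 was low in both classes, at 53.1 and 0 CPM in the cycling cells. Mrc1 and H2-DMb1 were thus lower and Cx3cr1 higher in the cycling cells of both libraries, while Spp1 showed no such order (3902 and 3555 against 3503 and 4599 CPM).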

How the data were processed

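Droplet 3' single-cell libraries were made from each tissue, and the authors deposited UMI counts per feature and barcode from Cell Ranger 3.0.2 (file header; mm10 per the processing notes), filtered to called cells and not normalised, with 31055 features. Here members were chosen by the stated rule on raw counts, and the counts were summed per library (Python 3.11.15, Scanpy 1.11.5). Sums were compared by edgeR's quasi-likelihood test (R 4.3.3, edgeR 4.0.16, limma 3.58.1) with TMM scaling and edgeR's filter on low counts, in a fit of the 5 libraries with at least 10 members, at a Benjamini-Hochberg adjusted p of 0.05. DESeq2 1.42.0 served as an alternative. Log2 differences are from that fit, and SE is its standard error. Exact intervals and permutation tests used scipy 1.17.1, and p-values for shares are two-sided.

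For shares of cells with a UMI, cells were thinned to 3000 UMIs and shallower cells left out. Doublets were called with Scrublet at an expected rate of 0.8% per 1000 barcodes and removed only in an alternative. Library sums were also thinned to 56272 UMIs. The statistics were also run on simulated counts with known changes, with the same spread for every gene and changes only in genes with many counts. That run gives no error rate for the sparse sums used here. Differences between members and other cells used 1 model over both kinds of sums.

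The members and the gene lists were chosen with earlier results of these data known. Named genes were the 10 largest called increases and decreases per comparison with at least 50 UMIs in the higher state and no overlap between states, up to 4 genes per list with the smallest p in Tumor against DCIS and up to 2 in DCIS against Prepuberty, whether or not they passed, and the genes the study names. Coordinates are GRCm38 and promoter sequences are RefSeq's.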

Additional observations from a re-analysis of the deposited data

Results flagged for a closer look

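In 20 named genes the change from DCIS to Tumor differed between C1q macrophages and the other kept cells of the same libraries, by the test of that difference itself. The chemokines Ccl7 (log2 difference of differences 5.84, SE 0.43, adjusted p = 0.000808), Ccl2 (5.68, SE 0.48, 0.00104) and Ccl8 (5.37, SE 0.58, 0.00447) stood lower in the other cells of Tumor than in those of DCIS and were not called lower in members. Ccl7 stood at 303, 225, 1240 and 506 CPM in members of DCIS 1, DCIS 2, Tumor 1 and Tumor 2 and at 1110, 757, 96.1 and 19.0 CPM in the rest. In Tumor 2, 1 member held 89.2% of the Ccl7 UMIs (157 of 176), so that its level there rests on that cell. Ccl2, like Ccl8 named here after its values were seen, stood at 767, 618, 836 and 432 CPM in members and at 3165, 2582, 94.2 and 19.3 CPM in the rest. Ccl8 in members was high in Tumor 1 alone (260, 477, 3417 and 71.9 CPM).

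More positive in members were also Cx3cr1 (5.19), C4b (4.18), Ltc4s (3.91), Tmem173 (3.57), Folr2 (3.31), Mef2c (3.13) and Tgfbr1 (2.51). More negative in members were Ccl5 (-5.98), Ptges (-5.69), Inhba (-5.30), Cmpk2 (-4.56), Acod1 (-4.27), Timp1 (-3.68), Spp1 (-3.30), Gsr (-2.50), Thbs1 (-2.36) and Nrp2 (-2.16). Spp1 climbed in the other cells (384, 254, 5886 and 2899 CPM) while members held 4107, 1724, 3503 and 4599 CPM. Acod1 stood at 11.9, 5.97, 4.52 and 2.25 CPM in the rest, below its level in members of the same library.

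Without DCIS 1 none of the 20 passed (adjusted p 0.203 to 0.398), and without DCIS 2 Nrp2 (0.0622) and Thbs1 (0.0977) were lost too. The makeup of the other cells changed between the states, and its part was not tested.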

How the results depend on the processing

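Depth limits these results most in Prepuberty, with 17 members, and calls across all comparisons turned on single libraries; the cause was not tested. Counts are given as higher and lower for DCIS against Prepuberty, Tumor against DCIS and Tumor against Prepuberty, where the values as reported were 0 and 1, 39 and 82, and 2 and 25. DESeq2 gave 6 and 3, 17 and 67, and 8 and 53. RLE size factors gave 0 and 0, 40 and 78, and 2 and 27, and library totals without TMM 0 and 0, 64 and 53, and 4 and 27. No filter on low counts gave 20 and 22, 212 and 251, and 58 and 100, and a stricter one 0 and 0, 26 and 57, and 0 and 19. Fitting each pair of states alone gave 37 and 42, 31 and 66, and 0 and 15, thinned library sums 5 and 8, 8 and 50, and 18 and 72, and the 5% mitochondrial limit 0 and 0, 42 and 79, and 2 and 28. Dropping the Csf1r clause gave 4 and 1, 78 and 151, and 127 and 219. With Prepuberty 2 in the fit, chosen after seeing the data, they were 2 and 0, 37 and 76, and 39 and 78. For Tumor against DCIS alone, removal of doublets gave 24 and 53, the stricter member rule 10 and 29, the rule on thinned cells 8 and 39 and removal of members with other cells' markers 10 and 44. These 4 left under 10 members in Prepuberty 1, so that library was out of the fits too and gave no comparison.

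Leaving out each library in turn gave 0 to 12 higher and 0 to 20 lower genes for DCIS against Prepuberty, 0 to 227 and 7 to 295 for Tumor against DCIS, and 0 to 44 and 4 to 137 for Tumor against Prepuberty. Genes whose change differed between members and other cells numbered 76, 82 with RLE, 49 of 1222 with thinned sums and 0 to 454 with each library left out. Csf1r in cells chosen without it gave 1.68 to 2.32 for Tumor against Prepuberty (not past the threshold without Prepuberty 1, 1.68), 0.84 to 1.11 for Tumor against DCIS (1.501 and past it without TMM) and 0.68 to 1.34 for DCIS against Prepuberty.

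Replicate numbers did not pair the samples (deviations correlated at r = 0.10 over 2208 genes). The replicate block gave 3 and 3, 78 and 163, and 12 and 50 calls, and 236 for the difference between members and other cells, with all 121 genes of Tumor against DCIS still called.

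Of the values of single named genes under an alternative, 2192 kept direction and side of the threshold, 158 moved past it, 289 fell short of it and 6 reversed, none past the threshold. Those were Fabp4 (0.25) and Tgfb1 (-0.45) for DCIS against Prepuberty without the Csf1r clause, Irf8 (-0.027) and Tgfb1 (-0.19) there with Prepuberty 2, and for Tumor against DCIS Atp6v0d2 without Tumor 1 (0.29, where leaving out other libraries gave down to -5.62) and Fn1 without Tumor 2 (-0.017, where leaving out others gave up to 2.41). The exact p for the share of members was 0.0667 with the stricter and the thinned rule and 0.133 otherwise.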
